A study of Mus musculus with 12 samples.

Results

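The genes described here are 43 genes of DNA replication and of the entry from G1 into S phase, measured in mouse natural killer (NK) cells, lymphocytes that kill target cells and secrete interferon gamma. They were chosen by name as rows of the deposited expression table, and all 43 were found among its 55487 features. Each of the 43 was also among the 12364 genes tested, which are those with a log2 CPM (reads of a gene per M reads of its library, M standing for mega, on a log scale to base 2) above 0 in at least 4 samples. The cells came from mice of strain B6.129S4-Ifngtm3.1Lky/J with the genotype mut/mut, so every group, the unstimulated controls included, carried the changed Ifng allele that reports interferon gamma by yellow fluorescent protein (YFP). The titles name HD IL-15 for every sample, where HD is not spelled out and IL-15 is a cytokine that supports NK cell survival and division. There were 3 groups of 4 samples. Samples of the first group were unstimulated, and the others had been treated with anti-NK1.1, an antibody to an activating receptor of NK cells, for 6 h and were taken as reporter-negative (YFP-) or reporter-positive (YFP+) cells. The unstimulated samples carry no YFP gate and no time in their labels, so stimulation and sorting by reporter cannot be told apart in a comparison with them. The labels do not say whether the 4 replicate names (f2, m2, m3 and m4) stand for separate mice, so p-values measure the spread between samples only.

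DNA is copied once per cell cycle. Origins are first licensed by loading of the MCM helicase, the helicase is then switched on by CDC45 and the GINS complex, and polymerases, a sliding clamp and its loader build the new strands from nucleotides that dedicated enzymes supply. Most of the genes for these proteins are switched on together at the G1/S boundary by E2F transcription factors, which the retinoblastoma proteins hold in check until cyclin-dependent kinases release them. IL-15 is known to drive NK cells to divide, and these transcripts are usually most abundant in dividing cells.

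The promoters are shown first because E2F sites are a known feature of many promoters of replication genes. RefSeq promoters of GRCm38.p6, from 250 bases before the start of a gene to 50 after it, could be matched by symbol for 35 of the 43 genes. Both strands were searched for the E2F letters TTTCCCGC, TTTCGCGC, TTTGCCGC and TTTGGCGC, where matches may overlap one another. They occurred in 15 of the 35 genes (42.9%), against 2.26% of all 32851 promoters and 5.1% of the 8704 genes tested that had a promoter. The letters CCAAT occurred in 62.9% of the 35 genes, 43.2% of the genes tested and 37.4% of all promoters. The E box CACGTG occurred in 20%, 12.1% and 7.15%, and the CHR letters TTTGAA in 17.1%, 14.8% and 17.9%. The first 2 shares of each motif count genes and the last counts promoters, of which a gene can have several. A match is a match of letters only. The 250 bases before the start are printed 5′ to 3′ on the gene's strand for the gene that fell most in YFP+ cells against unstimulated cells (Tk1), the gene with the smallest difference there, which did not pass the test (Pcna), the gene with the most E2F matches (Mcm6) and Mcm5. The last was added after its values were seen, as a licensing gene with E2F letters whose difference did not pass the test. Capitals mark E2F letters on either strand, and lower case marks the rest.
Tk1, chr11:117826015-117826264, minus strand: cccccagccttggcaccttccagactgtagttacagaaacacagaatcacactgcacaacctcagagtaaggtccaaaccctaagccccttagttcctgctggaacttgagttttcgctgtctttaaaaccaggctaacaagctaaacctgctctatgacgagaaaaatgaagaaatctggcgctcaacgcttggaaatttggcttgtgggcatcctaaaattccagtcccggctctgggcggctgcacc
Pcna, chr2:132253181-132253430, minus strand: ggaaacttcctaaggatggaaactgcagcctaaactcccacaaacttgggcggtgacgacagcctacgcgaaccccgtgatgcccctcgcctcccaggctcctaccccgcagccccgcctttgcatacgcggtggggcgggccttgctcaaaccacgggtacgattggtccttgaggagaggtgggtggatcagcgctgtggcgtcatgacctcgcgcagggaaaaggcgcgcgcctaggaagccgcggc
Mcm6, chr1:128359706-128359955, minus strand: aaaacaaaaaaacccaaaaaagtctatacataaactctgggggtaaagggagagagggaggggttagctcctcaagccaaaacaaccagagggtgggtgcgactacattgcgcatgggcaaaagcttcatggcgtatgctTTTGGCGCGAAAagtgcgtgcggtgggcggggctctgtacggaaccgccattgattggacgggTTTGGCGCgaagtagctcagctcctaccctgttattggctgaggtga
Mcm5, chr8:75109259-75109508, plus strand: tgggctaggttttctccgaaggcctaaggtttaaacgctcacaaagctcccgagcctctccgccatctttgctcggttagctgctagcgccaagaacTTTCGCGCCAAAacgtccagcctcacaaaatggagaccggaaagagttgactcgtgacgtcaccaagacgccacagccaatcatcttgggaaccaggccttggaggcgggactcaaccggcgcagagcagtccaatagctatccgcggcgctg
Tk1 and Pcna held none of these E2F letters in the window, Mcm6 held 3 matches and Mcm5 held 2. Among the 15 genes with E2F letters 13 were lower in YFP+ than in unstimulated cells, with a median log2 difference of -1.90, and among the 20 without them 16 were lower, with a median of -1.51. In YFP- against unstimulated cells 10 of the 15 and 14 of the 20 were lower, with medians of -1.15 and -0.90. In YFP+ against YFP- cells 5 of the 15 and 9 of the 20 were lower, with medians of -0.66 and -0.52. Lower means a call by limma, as set out below. Of all genes tested 33.3%, 20.9% and 18.5% were lower in these comparisons, in the order given, with medians of -0.03, 0.14 and -0.19.

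Libraries held 32.1 to 54.2 M reads, so that 3 reads, the smallest level taken as shown, were 0.0553 to 0.0933 CPM (counting error only). The labelled cell type was checked against markers: all 10 NK markers were among the genes tested, with summed levels of 10987 to 13714 CPM unstimulated, 7700 to 10430 CPM in YFP- and 7313 to 11626 CPM in YFP+. Of 8 B cell, 8 myeloid and 6 red cell markers, 7, 7 and 6 were under 1 CPM in every sample. Of 8 T cell markers 4 were tested, and their list summed to 119 to 168, 151 to 244 and 200.1 to 331 CPM in the 3 groups. Cd28 (61.3 to 78.8 CPM unstimulated and 142 to 260.3 CPM in YFP+) and Cd6 (0.301 to 0.973 and 8.20 to 36.1 CPM) were the members with higher ranges in YFP+, apart from Cd5 at no more than 1.12 CPM. The T cell receptor complex genes Cd3d (14.2 to 25.9 and 7.25 to 13.8 CPM) and Cd3g (30.9 to 79.4 and 11.71 to 31.9 CPM) had lower ranges there, which overlapped for Cd3g. Cd3e was at most 1.49 CPM, and Cd4 and Cd8b1 were under 1 CPM, in every sample. Klrb1c, which encodes NK1.1 itself, ran from 290.2 to 327 CPM unstimulated, 57.6 to 86.6 CPM in YFP- and 3.70 to 8.97 CPM in YFP+. Gzma, at 7843 to 9334 CPM, made up most of the unstimulated NK marker sum. The YFP+ range lay above the unstimulated range for Tbx21 and Klrk1 and overlapped it for Prf1 and Cd244a. It lay below for Klrb1c, Gzma, Ncr1, Klrd1, Eomes and Itga2. The part of any of these in the results below was not tested.

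Replication genes were lower after stimulation in both reporter fractions. In YFP- cells against unstimulated cells 31 of the 43 genes fell (72.1%) and 0 rose, by limma, also with 0 rising at an unadjusted p under 0.05, where 20.9% of all genes tested fell and 30.2% rose. In YFP+ cells against unstimulated cells 36 fell (83.7%) and 0 rose, again with 0 rising at an unadjusted p under 0.05, where 33.3% of all genes fell and 27.5% rose. The median log2 difference of the 43 genes was -1.09 in YFP- and -1.70 in YFP+, and the medians of all genes tested were 0.14 and -0.03. Of all calls in YFP- cells 59.1% were higher on the deposited scale and 49.3% to 51.6% under 4 other scalings between libraries. Under these 34 to 36 of the 43 genes fell and 0 rose, where 25.7% to 27.6% of all genes fell and 26.5% to 27.5% rose. A fall or rise here is a call by limma at an adjusted p under 0.05, with Benjamini-Hochberg adjustment over the 12364 genes and all 12 samples in 1 fit. These are bulk samples, so fewer cells in S phase and less RNA per cell cannot be told apart.

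The deepest falls in YFP+ were those of Tk1 (ENSMUSG00000025574, chr11:117815526-117826092), E2f2 (ENSMUSG00000018983, chr4:136172394-136196057) and Lig1 (ENSMUSG00000056394, chr7:13277283-13311433), with positions on GRCm38 from GENCODE M21. All 4 YFP- samples lay below all 4 unstimulated samples for 28 genes, and all 4 YFP+ samples did so for 34, where 21.7% and 30.8% of all genes tested did. By group means 38 of the 43 genes were highest unstimulated and lowest in YFP+. The others were Cdk2, whose YFP- mean was the highest, and Cdc6, Pcna, Ccne1 and Ccne2, whose YFP- mean was the lowest. The comparisons share samples: both use the unstimulated group, and the YFP- group also enters the comparison of the reporter fractions, so they are not independent of each other. Below, differences are log2 differences between group means, and where a pair is given the YFP- difference comes first and the YFP+ difference second, both against unstimulated cells.

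**Figure D1:**
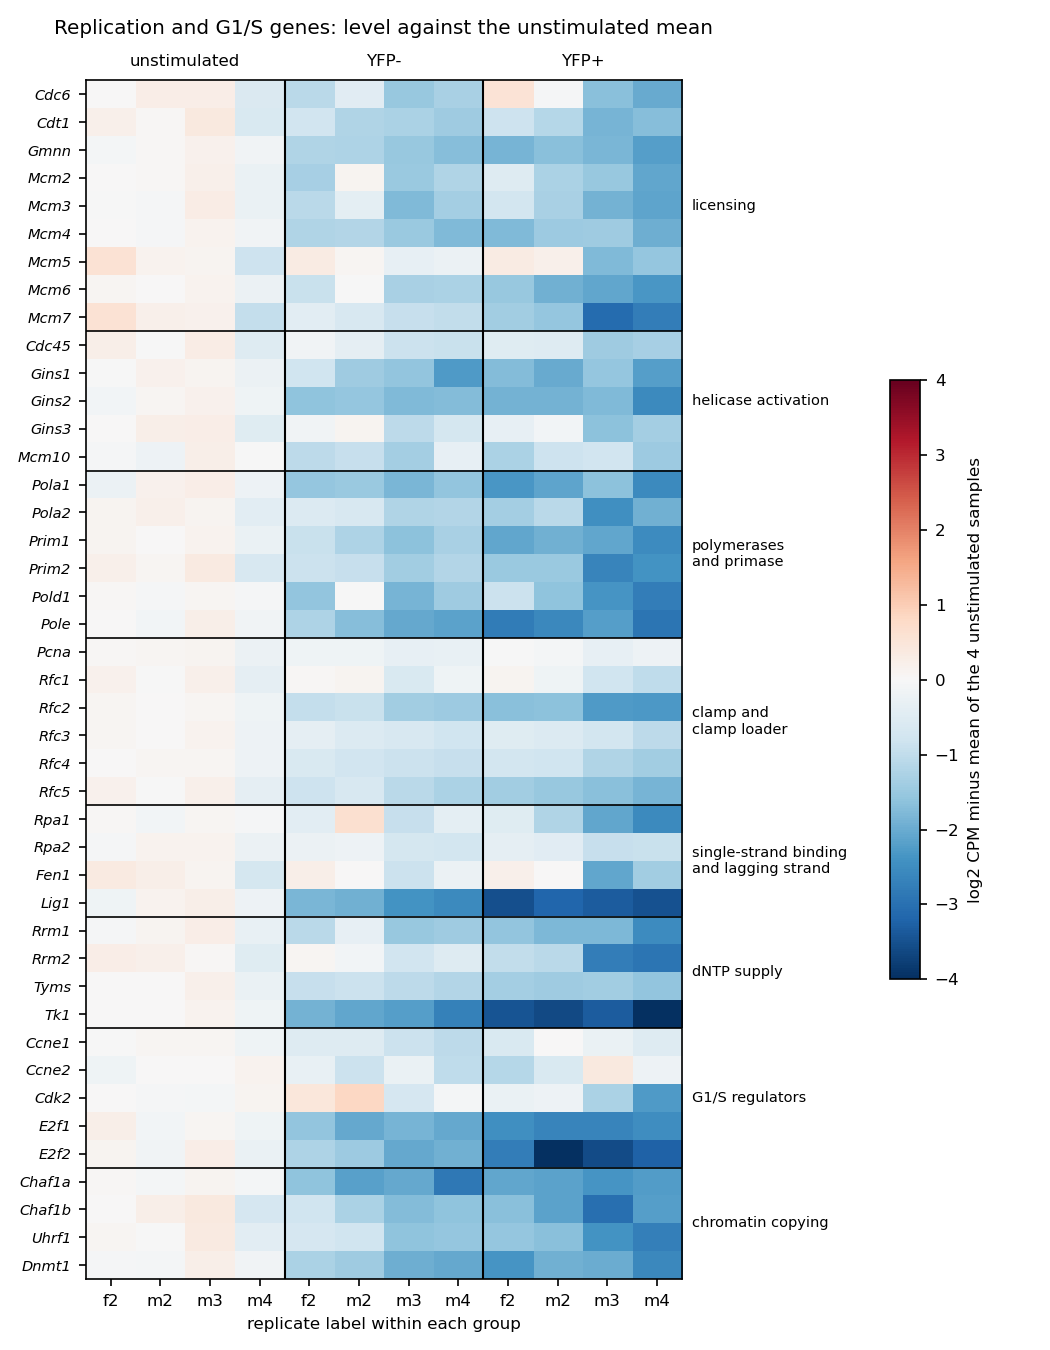
Each row is 1 of the 43 genes, ordered by role, and each column 1 sample; colour gives log2 CPM minus the gene's mean over the 4 unstimulated samples, so that blue is lower. Most rows are blue in YFP- and deeper blue in YFP+, while Pcna stays near the unstimulated mean and YFP+ samples m3 and m4 are darker than f2 and m2 in many rows.

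The level of the 43 genes as a whole was read as their sum. It was 2411, 2350.4, 2539.6 and 1853 CPM in the unstimulated samples, 1396, 1496, 1011 and 1039.7 CPM in YFP-, and 1090.2, 995, 704 and 634 CPM in YFP+, here and below in the order f2, m2, m3 and m4. The YFP- and unstimulated sums did not overlap, while YFP+ sample f2 lay within the YFP- range. Nucleotide supply genes summed to 366 to 498 CPM unstimulated and to 68.0 to 140.0 CPM in YFP+, while clamp and clamp loader genes summed to 477 to 606 CPM and to 261 to 352 CPM.

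**Figure D2:**
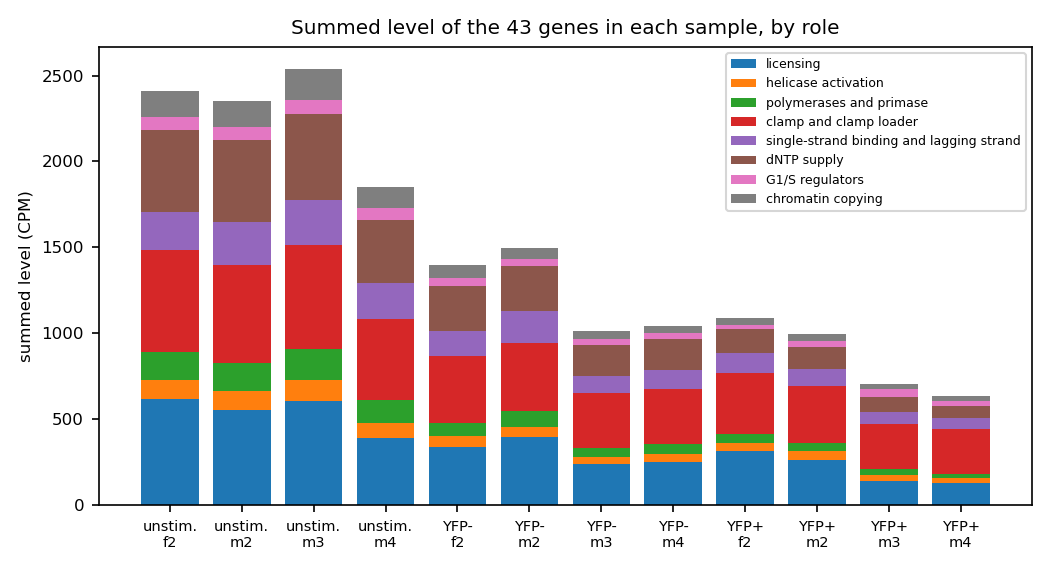
Stacked bars give the summed CPM of the 43 genes in each sample, split by role, with the y axis from 0. Unstimulated bars reach 1853 to 2540 CPM, YFP- bars 1011 to 1496 CPM and YFP+ bars 634 to 1090.2 CPM, with the clamp and clamp loader share (red) the largest part of each YFP+ bar.

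Licensing genes load the MCM helicase onto origins, and 6 of the 9 fell in YFP- and 7 in YFP+. Gmnn, which encodes geminin, the inhibitor that stops re-licensing, stood at 57.4, 62.0, 67.7 and 54.0 CPM unstimulated, 26.2, 25.5, 20.8 and 18.5 in YFP- and 16.4, 18.7, 16.9 and 13.0 in YFP+. Every stimulated sample was below every unstimulated one, with log2 differences of -1.41 (SE 0.15, adjusted p = 7.3e-06) for YFP- and -1.90 (SE 0.15, adjusted p = 2e-07) for YFP+. Mcm7, a subunit of the MCM helicase ring, stood at 124, 95.2, 93.3 and 42.6 CPM unstimulated, 61.8, 52.7, 43.5 and 41.6 in YFP- and 31.8, 28.4, 9.86 and 12.2 in YFP+. YFP- overlapped the unstimulated group through unstimulated sample m4, and the YFP- difference of -0.75 (SE 0.38, adjusted p = 0.12) did not pass, while all YFP+ samples were lower, at -2.19 (SE 0.38, adjusted p = 0.00022). Of the exonic bases of Mcm7, 12.6% are shared with other genes, and no source used here states whether reads were assigned by strand.

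Of the other MCM ring genes 4 fell in both comparisons and Mcm5 did not pass. Mcm6 stood at 83.8, 81.9, 88.4 and 68.2 CPM unstimulated, 43.1, 79.4, 32.3 and 33.6 in YFP- and 28.0, 20.98, 18.9 and 15.9 in YFP+. YFP- m2 reached the unstimulated range and the other stimulated samples did not, and Mcm6 fell by 0.87 in YFP- and by 1.97 in YFP+ on the log2 scale (adjusted p = 0.012 and 1.6e-05). Mcm5 stood at 128, 94.0, 92.1 and 47.9 CPM unstimulated, 106, 90.3, 67.6 and 73.1 in YFP- and 108, 97.9, 25.1 and 29.0 in YFP+. Its groups overlapped throughout, with 97.9 to 108 CPM in YFP+ f2 and m2 but 25.1 to 29.0 CPM in m3 and m4, and neither difference passed, at -0.04 (SE 0.45, adjusted p = 0.95) and -0.70 (SE 0.45, adjusted p = 0.19). Mcm2, Mcm3 and Mcm4 fell in both comparisons, from -0.97 for Mcm2 to -1.41 for Mcm4 in YFP- and from -1.35 to -1.64 in YFP+. For Mcm2, YFP- m2 stood at 42.1 CPM, within the unstimulated range of 32.2 to 44.8 CPM. The call of Mcm2 in YFP- was lost without any 1 of 6 of the 8 samples compared.

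Of the factors that bring the ring to origins, Cdt1 fell and Cdc6 did not pass with all 12 samples in the fit. Cdt1 differed by -1.16 (SE 0.25, adjusted p = 0.0019) in YFP- and -1.39 (SE 0.25, adjusted p = 0.00033) in YFP+. Cdc6 stood at 12.8, 15.2, 15.3 and 8.54 CPM unstimulated, 5.94, 9.14, 4.45 and 5.14 in YFP- and 18.5, 12.1, 3.92 and 3.11 in YFP+. The YFP+ samples were split, with f2 above every unstimulated sample and m3 and m4 below all of them, and the differences were -1.09 (SE 0.47, adjusted p = 0.071) and -0.80 (SE 0.47, adjusted p = 0.16). Fitted over only the 8 YFP- and unstimulated samples, the Cdc6 difference passed in YFP- (limma adjusted p = 0.0017), where 3 of the 4 YFP- samples lay below every unstimulated one.

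Helicase activation genes turn the loaded ring into a moving fork, and 3 of the 5 fell in YFP- and 5 in YFP+. Gins2, a GINS subunit, stood at 41.5, 47.2, 49.8 and 39.6 CPM unstimulated, 14.4, 15.1, 13.0 and 13.4 in YFP- and 11.8, 11.9, 13.1 and 7.62 in YFP+. No stimulated sample reached the unstimulated range, and the differences were -1.67 (SE 0.17, adjusted p = 3.6e-06) and -2.02 (SE 0.17, adjusted p = 2.3e-07); 67.3% of its exonic bases are shared with Gse1 on the opposite strand. Gins3, another subunit, stood at 7.82, 9.02, 9.26 and 5.49 CPM unstimulated, 7.04, 8.29, 3.78 and 4.79 in YFP- and 6.19, 7.12, 2.46 and 2.99 in YFP+. Its groups overlapped in both comparisons, with -0.44 (SE 0.35, adjusted p = 0.31) in YFP- and -0.87 (SE 0.35, adjusted p = 0.045) in YFP+, and the second call was lost under several alternatives. Gins1 fell, with log2 differences of -1.52 and -1.87. Cdc45 passed in YFP+ at -0.93 (SE 0.26, adjusted p = 0.0071) and not in YFP-, at -0.56 (SE 0.26, adjusted p = 0.088).

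Mcm10, which helps assemble the active helicase, was among the least abundant of these genes. It stood at 8.45, 7.497, 10.3 and 8.63 CPM unstimulated, 4.15, 4.56, 3.36 and 6.95 in YFP- and 3.60, 4.83, 5.08 and 3.14 in YFP+. No stimulated sample reached the unstimulated range, and the differences were -0.91 (SE 0.23, adjusted p = 0.0046) and -1.08 (SE 0.23, adjusted p = 0.001).

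All 6 polymerase and primase genes fell in both comparisons. Pole, the catalytic subunit of the leading strand polymerase epsilon, stood at 14.6, 13.3, 17.0 and 12.9 CPM unstimulated, 6.09, 4.40, 3.48 and 3.24 in YFP- and 2.04, 2.38, 3.09 and 1.90 in YFP+. The 3 groups formed separate steps without overlap, at -1.78 (SE 0.22, adjusted p = 2.2e-05) for YFP- and -2.63 (SE 0.22, adjusted p = 2.6e-07) for YFP+ against unstimulated cells, the latter a 6.18-fold lower level. Pola2, the accessory subunit of polymerase alpha, fell least of the 6 and stood at 17.7, 19.0, 18.0 and 12.4 CPM unstimulated, 11.3, 10.5, 7.17 and 7.40 in YFP- and 6.40, 7.91, 3.01 and 4.36 in YFP+. It lay lower in every stimulated sample than in any unstimulated one, with -0.89 (SE 0.28, adjusted p = 0.015) and -1.70 (SE 0.28, adjusted p = 0.00011).

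Pola1, the catalytic subunit of polymerase alpha, stood at 15.6, 20.4, 22.1 and 15.9 CPM unstimulated, 6.23, 6.49, 5.16 and 6.18 in YFP- and 3.62, 4.26, 5.91 and 3.11 in YFP+. YFP- and YFP+ samples overlapped each other but not the unstimulated ones, and the differences were -1.61 and -2.15. Prim2, the large primase subunit that helps make RNA primers, stood at 39.1, 36.1, 43.3 and 21.9 CPM unstimulated, 18.8, 18.0, 12.9 and 15.0 in YFP- and 12.1, 12.1, 5.47 and 6.53 in YFP+. YFP- and YFP+ did not overlap each other, and Prim2 fell, with log2 differences of -1.09 and -1.997. Its partner Prim1 fell, with log2 differences of -1.27 and -2.14. Pold1, the catalytic subunit of polymerase delta, fell, with log2 differences of -1.22 and -1.90; YFP- m2 alone stood at 35.7 CPM, within the unstimulated range of 35.0 to 38.3 CPM, and the YFP- call was lost without f2, m3 or m4 of the YFP- samples.

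Of the 6 clamp and clamp loader genes 4 fell in each comparison with unstimulated cells, and Pcna did not pass in either. Pcna, which encodes the clamp that tethers polymerases to DNA, had the highest level per length of the 43 genes, with a mean of 66.2 CPM per kb of exon unstimulated, 55.9 in YFP- and 59.5 in YFP+. It stood at 164, 166, 172 and 134 CPM unstimulated, 141, 141, 127 and 128 in YFP- and 156, 149, 127 and 139 in YFP+. The groups overlapped, and its differences of -0.24 (SE 0.11, adjusted p = 0.094) and -0.15 (SE 0.11, adjusted p = 0.26) did not pass on the deposited scale, while its YFP- difference passed under the 4 other scalings, as did those of Cdc6 and Cdc45, and that of Mcm7 passed under 3 of them.

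Rfc2, a loader subunit, stood at 186, 179.9, 187 and 159 CPM unstimulated, 90.9, 94.9, 68.0 and 64.3 in YFP- and 55.8, 56.3, 36.9 and 36.3 in YFP+. All 3 groups were separate, at -1.18 (SE 0.18, adjusted p = 0.00012) and -1.97 (SE 0.18, adjusted p = 6.2e-07), and 15.1% of its exonic bases are shared with Lat2. Rfc1, the large loader subunit, stood at 45.2, 39.2, 46.0 and 30.9 CPM unstimulated, 41.4, 42.96, 26.1 and 35.2 in YFP- and 42.7, 35.4, 22.8 and 19.8 in YFP+. YFP- f2, m2 and m4 stood within the unstimulated range, and neither difference passed, at -0.16 (SE 0.24, adjusted p = 0.62) and -0.47 (SE 0.24, adjusted p = 0.11). Rfc3, Rfc4 and Rfc5 fell in both comparisons, with log2 differences of -0.58, -0.80 and -0.95 in YFP- and -0.70, -1.03 and -1.61 in YFP+.

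Of the 4 genes for coating single strands and finishing the lagging strand, 2 fell in YFP- and 3 in YFP+. Lig1, the ligase that joins Okazaki fragments, stood at 83.1, 104, 109.5 and 81.4 CPM unstimulated, 26.4, 24.7, 17.9 and 16.1 in YFP- and 8.17, 10.4, 9.28 and 8.34 in YFP+. Its 3 groups did not overlap, and the falls were -2.17 (SE 0.18, adjusted p = 6.8e-07) in YFP- and -3.38 (SE 0.18, adjusted p = 5e-09) in YFP+, 4.49-fold and 10.4-fold lower. Rpa1, the large subunit of the protein that coats single-stranded DNA, stood at 57.4, 50.7, 58.4 and 53.7 CPM unstimulated, 40.9, 86.2, 28.7 and 41.6 in YFP- and 38.9, 23.7, 12.9 and 9.40 in YFP+. YFP- m2 was the highest of all 12 samples, so the YFP- group overlapped the controls (-0.28, SE 0.39, adjusted p = 0.57), and YFP+ fell (-1.59, SE 0.39, adjusted p = 0.003).

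Rpa2, the middle subunit of the same complex, stood at 79.4, 90.8, 91.0 and 70.4 CPM unstimulated, 70.2, 71.0, 51.2 and 49.9 in YFP- and 63.9, 59.7, 43.6 and 44.1 in YFP+. It fell by 0.46 in YFP- and by 0.66 in YFP+ on the log2 scale, where YFP- reached the unstimulated range in 1 sample and the YFP- call was lost when any of 5 samples was left out. Fen1, the flap nuclease of the lagging strand, stood at 3.93, 3.58, 3.29 and 1.88 CPM unstimulated, 3.61, 3.08, 1.68 and 2.61 in YFP- and 3.56, 3.10, 0.718 and 1.15 in YFP+. It overlapped in both comparisons without a call, at -0.21 (SE 0.46, adjusted p = 0.73) and -0.81 (SE 0.46, adjusted p = 0.14), and 84.2% of its exonic bases are shared with Tmem258 and Gm10143 on the opposite strand.

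**Figure D3:**
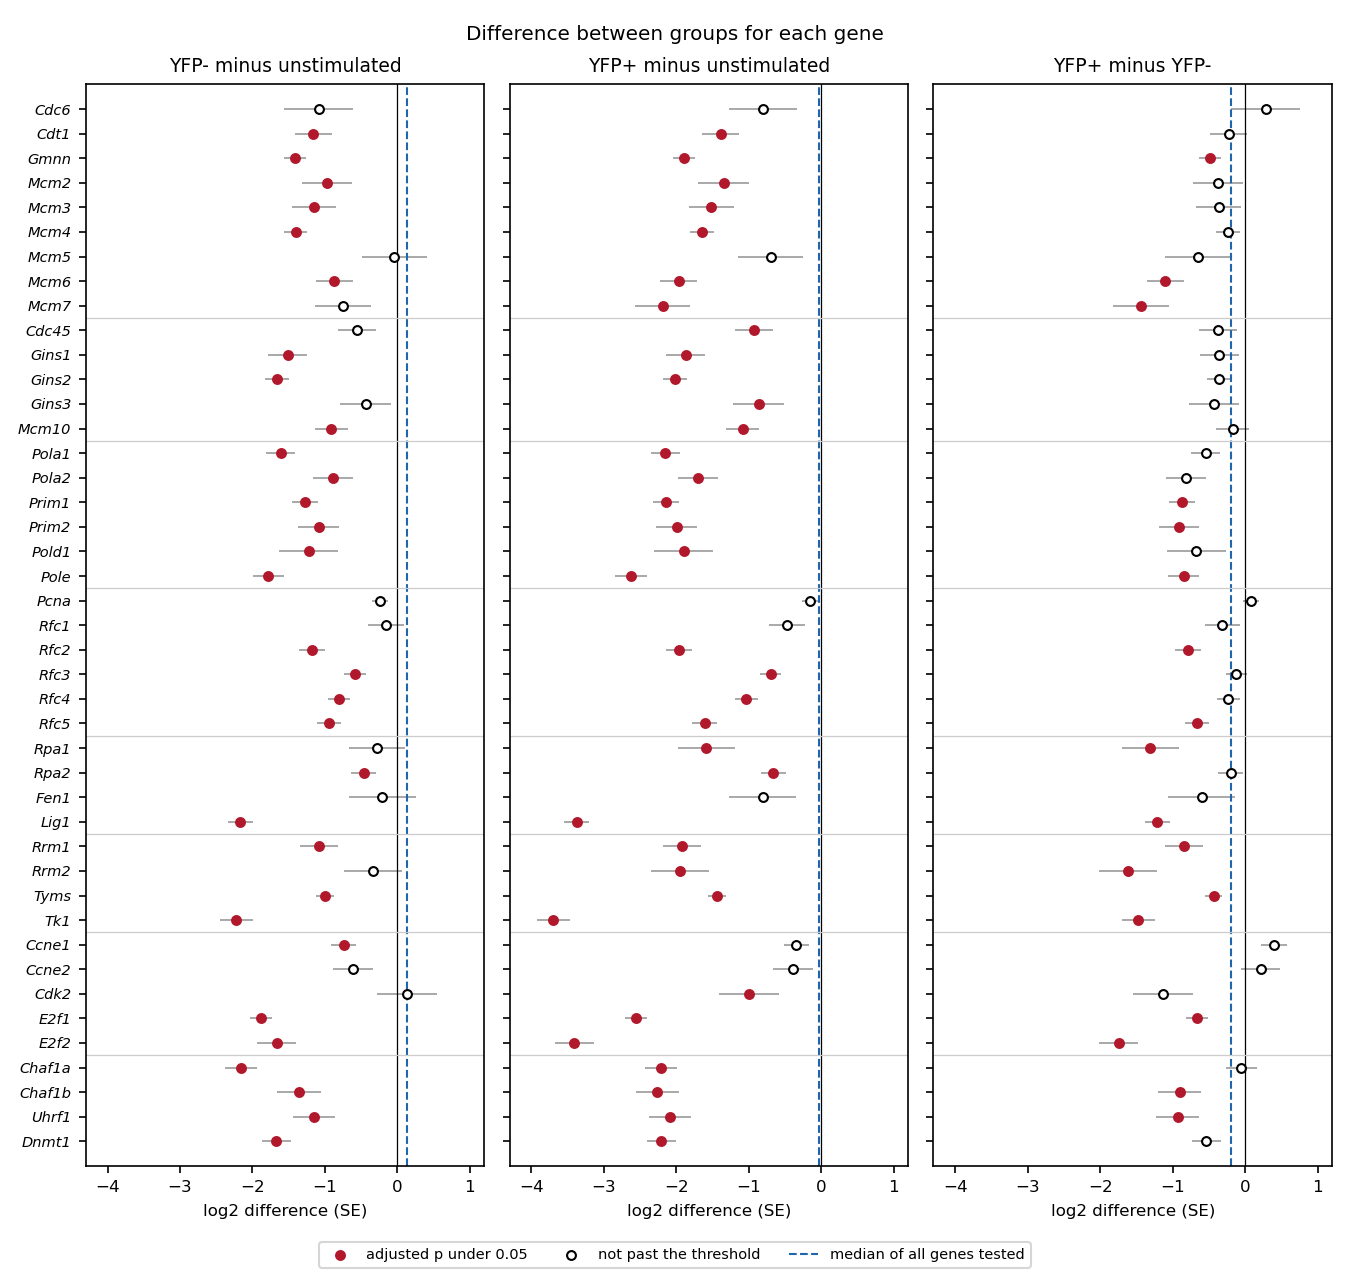
Points give the log2 difference of each of the 43 genes in the 3 comparisons, with bars of 1 SE; red points passed an adjusted p under 0.05 and the dashed line marks the median of all genes tested. Against unstimulated cells 42 of the 43 points in YFP- and all 43 in YFP+ lie left of the dashed line, down to -3.70 for Tk1 in YFP+, while between the reporter fractions the points lie from -1.74 (E2f2) to 0.40 (Ccne1).

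Nucleotide supply genes make the deoxynucleotides for the new strands, and 3 of the 4 fell in YFP- and 4 in YFP+. Tk1, the salvage thymidine kinase of S phase, stood at 161, 163, 178 and 141 CPM unstimulated, 42.7, 37.5, 34.7 and 24.7 in YFP- and 14.6, 13.2, 16.1 and 7.40 in YFP+. It had the largest fall of the 43 genes in both comparisons, at -2.23 (SE 0.23, adjusted p = 4.7e-06) and -3.70 (SE 0.23, adjusted p = 2e-08), 4.68-fold and 13.0-fold lower, with no overlap between any groups. Tyms, which makes thymidylate, stood at 98.0, 97.8, 111 and 80.8 CPM unstimulated, 51.1, 52.9, 46.3 and 43.05 in YFP- and 37.6, 36.0, 36.6 and 32.5 in YFP+. It fell without overlap between any groups, at -0.998 (SE 0.12, adjusted p = 2.3e-05) and -1.43 (SE 0.12, adjusted p = 3.5e-07).

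Ribonucleotide reductase makes deoxynucleotides from ribonucleotides and has subunits from Rrm1 and Rrm2. Rrm2, the S phase subunit, stood at 159, 152, 136 and 94.1 CPM unstimulated, 139, 123, 77.1 and 92.3 in YFP- and 67.1, 62.1, 19.3 and 17.4 in YFP+. YFP- f2 and m2 stood within the unstimulated range and no YFP+ sample did, with -0.33 (SE 0.40, adjusted p = 0.51) for YFP- and -1.94 (SE 0.40, adjusted p = 0.00084) for YFP+. Rrm1, the large subunit, fell, with log2 differences of -1.09 (SE 0.26, adjusted p = 0.0035) in YFP- and -1.93 (SE 0.26, adjusted p = 2.4e-05) in YFP+.

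Of the 5 G1/S regulators 3 fell in each comparison. E2f1 and E2f2 encode activating E2F factors. E2f1 stood at 24.6, 19.4, 22.4 and 18.6 CPM unstimulated, 7.07, 5.13, 5.81 and 5.10 in YFP- and 3.84, 3.39, 3.40 and 3.76 in YFP+. Its 3 groups were separate, at -1.88 (SE 0.15, adjusted p = 6.5e-07) and -2.55 (SE 0.15, adjusted p = 1.6e-08). E2f2 stood at 18.8, 15.9, 21.2 and 14.7 CPM unstimulated, 7.45, 6.36, 4.22 and 4.61 in YFP- and 2.58, 1.01, 1.46 and 1.87 in YFP+. It fell, with log2 differences of -1.66 (SE 0.27, adjusted p = 0.00021) in YFP- and -3.41 (SE 0.27, adjusted p = 1.7e-07) in YFP+, 10.6-fold lower, and YFP+ m2 was the lowest sample of all.

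Cyclin E, made from Ccne1 and Ccne2, partners the kinase CDK2 at the G1/S boundary. Ccne1 stood at 9.31, 9.97, 10.0 and 8.38 CPM unstimulated, 6.50, 6.53, 5.14 and 4.57 in YFP- and 6.19, 9.48, 7.76 and 6.63 in YFP+. It was below the controls in every YFP- sample (-0.74, SE 0.17, adjusted p = 0.003) and overlapped them in YFP+ (-0.34, SE 0.17, adjusted p = 0.1). Ccne2 did not pass in either comparison, at -0.61 (SE 0.27, adjusted p = 0.079) and -0.39 (SE 0.27, adjusted p = 0.23). Cdk2 stood at 6.85, 6.66, 6.50 and 7.28 CPM unstimulated, 9.32, 12.2, 4.29 and 6.46 in YFP- and 5.64, 5.95, 2.85 and 1.40 in YFP+. YFP- f2 and m2 were above every unstimulated sample (0.14, SE 0.41, adjusted p = 0.8), all YFP+ samples were below them (-0.999, SE 0.41), and that call lay close to the threshold and was lost under several alternatives.

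All 4 genes that rebuild chromatin and methylation on new DNA fell in both comparisons. Chaf1a, the large subunit of the histone chaperone CAF-1, stood at 17.0, 15.5, 17.6 and 15.7 CPM unstimulated, 5.44, 3.67, 4.01 and 2.26 in YFP- and 3.90, 3.69, 3.18 and 3.45 in YFP+. The stimulated groups overlapped each other and not the controls, with -2.16 (SE 0.22, adjusted p = 4e-06) and -2.21 (SE 0.22, adjusted p = 1.2e-06); 52.5% of its exonic bases are shared with Ubxn6. Chaf1b, the middle subunit, stood at 26.8, 31.0, 34.5 and 16.6 CPM unstimulated, 15.1, 10.9, 7.81 and 8.52 in YFP- and 8.15, 5.88, 3.26 and 5.69 in YFP+. It differed by -1.36 (SE 0.30, adjusted p = 0.0019) in YFP- and -2.26 (SE 0.30, adjusted p = 1.9e-05) in YFP+.

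Uhrf1, which recruits the maintenance methyltransferase to hemimethylated DNA, stood at 46.6, 44.1, 56.9 and 33.0 CPM unstimulated, 27.9, 25.7, 14.4 and 15.3 in YFP- and 15.1, 14.0, 8.43 and 6.66 in YFP+. No stimulated sample reached the unstimulated range, and Uhrf1 fell, with log2 differences of -1.15 (SE 0.29, adjusted p = 0.005) and -2.09 (SE 0.29, adjusted p = 3.2e-05). Dnmt1, that methyltransferase, fell, with log2 differences of -1.67 and -2.21.

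**Figure D4:**
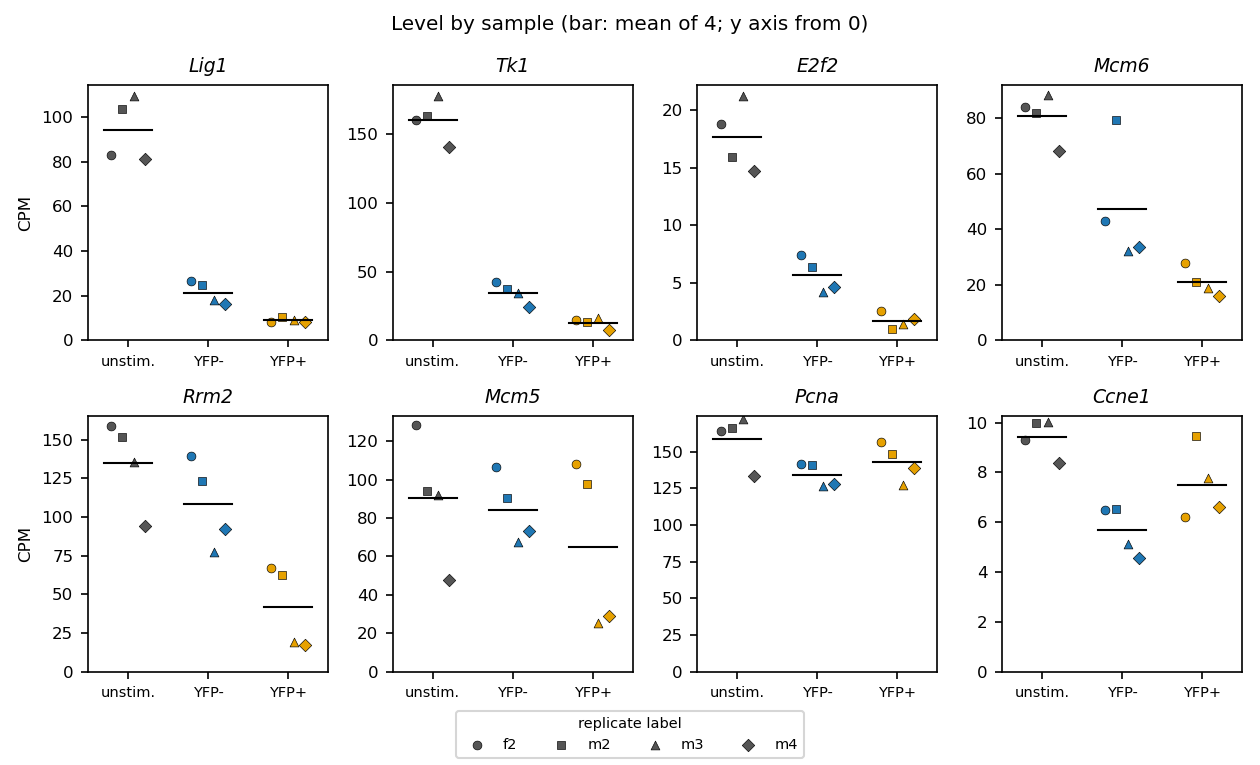
CPM in each sample for 8 of the genes, with 1 panel per gene, a marker shape for each replicate name, a bar at the mean of 4 and y axes that start at 0. Lig1, Tk1 and E2f2 step down without overlap, Mcm5 splits within YFP+ into samples near 100 CPM and samples at 25.1 and 29.0 CPM, and Pcna stays between 127 and 172 CPM in all 12 samples.

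The reporter fractions were then compared with each other, which asks whether cells that had switched on the interferon gamma reporter differed from stimulated cells that had not. In YFP+ against YFP- cells 18 of the 43 genes were lower (41.9%) and 0 higher by limma, with 1 higher at an unadjusted p under 0.05, where 18.5% of all genes tested were lower and 3.28% higher. All 4 YFP+ samples lay below all 4 YFP- samples for 14 of the 43 genes and for 17.8% of all genes. The median log2 difference of the 43 genes was -0.54, but the median of all genes tested was itself -0.19, which leaves -0.36 relative to it. The direction of calls over all genes depended on scaling here: 15.1% of calls were higher in YFP+ on the deposited scale and 41.1% under trimmed-mean scaling, a between-library scaling that moved the all-gene median to 0.0017. Under that scaling 14 of the 43 genes were lower (32.6%) and 2 higher, Ccne1 at 0.59 (adjusted p = 0.014) and Pcna at 0.28 (adjusted p = 0.042), where 13.6% of all genes were lower and 9.46% higher.

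The count also rested on single samples. It was 10 without YFP- f2, 10 without YFP+ m4 and 11 without YFP- m2, and no more than 20 without any other YFP- or YFP+ sample. Over all genes 1585, 1770 and 1643 were lower without these samples, against 2286 with all 12 samples. Without any other YFP- or YFP+ sample 1964 to 2578 were lower. Of the 18 genes, 10 were lower under the deposited scale and 4 other scalings: Mcm6, Mcm7, Prim1, Rfc2, Rfc5, Rpa1, Lig1, Rrm2, Tk1 and E2f2. The others, Gmnn, Prim2, Pole, Rrm1, Tyms, E2f1, Chaf1b and Uhrf1, lost the call under at least 1 of the 4. Of the 10, Mcm7 and Rpa1 lost it without at least 1 sample.

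The 3 largest differences between the fractions were those of E2f2, Rrm2 and Tk1. E2f2 was lower in YFP+, at -1.74 (SE 0.27, adjusted p = 0.00053), with 1.01 to 2.58 CPM against 4.22 to 7.45 CPM in YFP-. Rrm2 was lower at -1.61 (SE 0.40, adjusted p = 0.011), Tk1 at -1.47 (SE 0.23, adjusted p = 0.00052) and Lig1 at -1.21 (SE 0.18, adjusted p = 0.00034), each with no overlap between the fractions. All 4 nucleotide supply genes were lower in YFP+, with Tyms the least at -0.43 (SE 0.12, adjusted p = 0.022). As fold differences, Tk1 was 2.78-fold and Rrm2 3.06-fold lower in YFP+ than in YFP-.

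Counts by role between the fractions are set against 18.5% of all genes lower, or 13.6% under trimmed-mean scaling. Differences between role groups were not tested. In the licensing group 3 of 9 genes were lower in YFP+ than in YFP-. These were Mcm7 at -1.44 (SE 0.38, adjusted p = 0.016), Mcm6 at -1.099 (SE 0.25, adjusted p = 0.0074) and Gmnn at -0.48 (SE 0.15, adjusted p = 0.039). Cdc6 had the most positive value of the group, 0.29 (SE 0.47, adjusted p = 0.71), with YFP+ f2 and m2 above all YFP- samples and m3 and m4 below them. None of the 5 helicase activation genes passed, from -0.43 (SE 0.35, adjusted p = 0.42) for Gins3 to -0.17 (SE 0.23, adjusted p = 0.64) for Mcm10. By limma 0 had an adjusted p under 0.05 and 1, Gins2, an unadjusted p under 0.05.

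Of the polymerase and primase genes 3 of 6 were lower: Prim2 at -0.91 (SE 0.28, adjusted p = 0.033), Prim1 at -0.87 (SE 0.18, adjusted p = 0.0036) and Pole at -0.85 (SE 0.22, adjusted p = 0.014). Pola1 had the smallest difference of the 6, -0.54 (SE 0.20, adjusted p = 0.069). In the clamp group Rfc2 (-0.79, SE 0.18, adjusted p = 0.0066) and Rfc5 (-0.66, SE 0.17, adjusted p = 0.013) were lower of 6, and Pcna stood at 0.09 (SE 0.11, adjusted p = 0.63). Of the lagging strand group Rpa1 (-1.31, SE 0.39, adjusted p = 0.029) and Lig1 were lower of 4, and Rpa2 was at -0.20 (SE 0.17, adjusted p = 0.44).

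The G1/S regulators had the widest range of differences between the fractions. E2f1 (-0.67, SE 0.15, adjusted p = 0.0066) and E2f2 were lower, while Ccne1 was at 0.40 (SE 0.17, adjusted p = 0.12) and Ccne2 at 0.21 (SE 0.27, adjusted p = 0.62). Cdk2, at -1.14 (SE 0.41, adjusted p = 0.066), did not pass. Of the chromatin genes Uhrf1 (-0.93, SE 0.29, adjusted p = 0.036) and Chaf1b (-0.90, SE 0.30, adjusted p = 0.046) were lower, and Chaf1a was at -0.05 (SE 0.22, adjusted p = 0.9), with YFP+ samples at 3.18 to 3.90 CPM inside the YFP- range of 2.26 to 5.44 CPM.

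Samples of the same group were not equally spread in these genes. The median range of the 43 genes over the 4 samples, on the log2 scale, was 0.43 unstimulated, 0.74 in YFP- and 0.94 in YFP+, where the median of all genes tested was 0.47, 0.55 and 0.75. Unstimulated m4 was the lowest of its group for 36 of the 43 genes, and for 39.8% of all genes. In YFP+ m4 was lowest for 26 genes and m3 for 12, against 22.6% and 40.8% of all genes. YFP+ f2 and m2 both lay above m3 and m4 for 27 of the 43 (62.8%) and for 42.0% of all genes, among them Mcm5, Mcm7, Rrm2, Rpa1 and Fen1.

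Other genes of the same pathways were read from lists of 64 genes, of which 63 were tested. In YFP- cells 35 fell and 9 rose, in YFP+ cells 39 fell and 11 rose, and between YFP+ and YFP- cells 15 were lower and 1 higher. Those that fell were 55.6% of the 63 in YFP- and 61.9% in YFP+, against 20.9% and 33.3% of all genes tested. Between the fractions the share of lower genes, 23.8%, was near the 18.5% of all genes, and under trimmed-mean scaling it was 17.46% against 13.6%. On the deposited scale 14.29% of the 63 rose in YFP- and 17.46% in YFP+, against 30.2% and 27.5% of all genes tested. Over 4 other scalings these counts ran from 40 to 42 and 7 to 8, 38 in each and 11 to 13, and from 9 to 11 and 2 to 5. Of all genes 25.74% to 27.58%, 30.61% to 31.88% and 11.57% to 13.56% were then lower. The higher ones were 26.47% to 27.49%, 31.41% to 33.34% and 9.406% to 12.17%. Between the fractions 14.29% to 17.46% of the 63 were then lower and 3.175% to 7.937% higher. The most negative in YFP- were Dck (-2.20), a kinase that salvages deoxycytidine, and E2f8 (-2.01), a repressor E2F; in YFP+ they were Samhd1 (-3.40), which breaks down deoxynucleotides, and E2f8 (-2.91).

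The origin recognition complex marks origins, and its 6 genes did not move in 1 direction. Orc2 stood at 4.75, 5.39, 6.02 and 4.78 CPM unstimulated, 14.3, 19.8, 13.2 and 18.4 in YFP- and 25.8, 19.5, 12.0 and 15.4 in YFP+. It rose without overlap, at 1.63 (SE 0.22, adjusted p = 4.5e-05) and 1.74 (SE 0.22, adjusted p = 1.3e-05). Orc4 rose, with log2 differences of 1.25 (SE 0.28, adjusted p = 0.002) and 1.22 (SE 0.28, adjusted p = 0.0016). Orc3 rose in YFP- (0.998, SE 0.34, adjusted p = 0.024), a call lost without at least 1 sample, and was at 0.39 (SE 0.34, adjusted p = 0.33) in YFP+. Orc6 went the other way, with 42.0 to 54.9 CPM unstimulated and 25.5 to 28.5 CPM in all 8 stimulated samples, at -0.83 (SE 0.12, adjusted p = 7.2e-05) and -0.81 (SE 0.12, adjusted p = 4.7e-05). Orc1 and Orc5 did not pass in any comparison, and Orc1 had the most positive value of these lists between the fractions (0.72, SE 0.28, adjusted p = 0.088).

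The E2F and Rb family also split. E2f5, a repressor-type E2F, stood at 0.734, 1.89, 1.23 and 0.771 CPM unstimulated, 4.02, 3.71, 3.18 and 4.83 in YFP- and 3.15, 4.17, 5.69 and 7.0 in YFP+. It was the gene with the largest rise on these lists, at 1.85 (SE 0.32, adjusted p = 0.00033) and 2.14 (SE 0.32, adjusted p = 5.5e-05). E2f7 and E2f8, repressors that are themselves E2F targets, fell, with log2 differences of -1.90 and -2.01 in YFP- and -2.86 and -2.91 in YFP+. Ccna2, the cyclin of S phase, fell, with log2 differences of -1.15 and -2.86 and was the lowest of these lists between the fractions (-1.71, SE 0.19, adjusted p = 5e-05). Rbl2, an Rb relative linked to resting cells, was at -0.35 (SE 0.15, adjusted p = 0.067) in YFP- and fell in YFP+, at -1.42 (SE 0.15, adjusted p = 2.5e-06); E2f3, E2f4, E2f6 and Tfdp1 did not pass in any comparison.

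**Figure D5:**
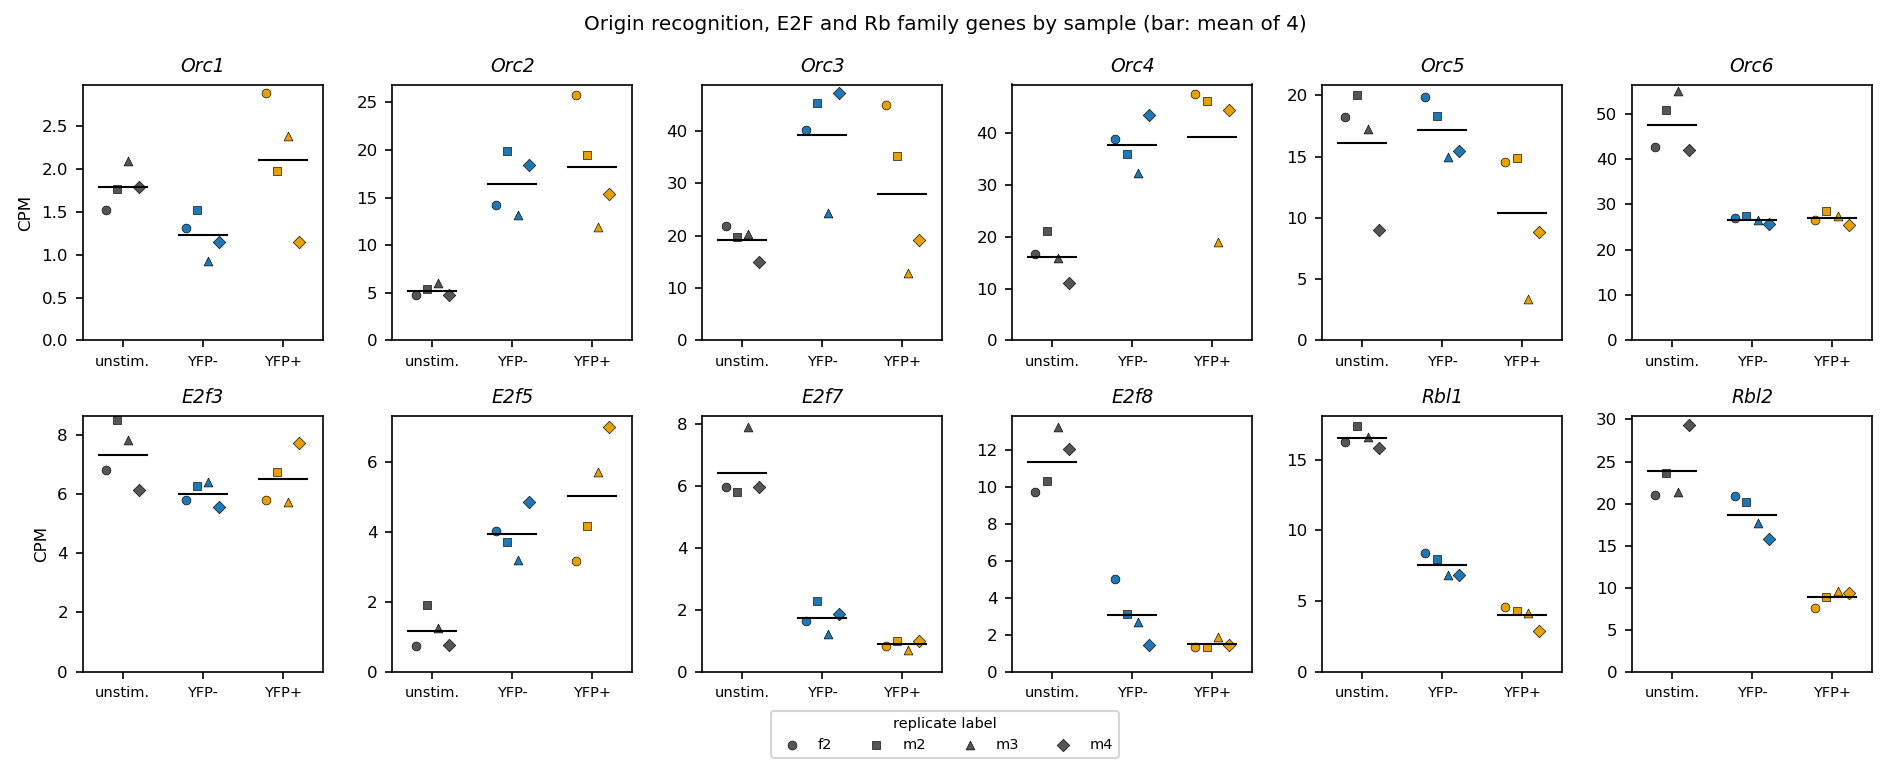
CPM in each sample for the 6 origin recognition genes and 6 E2F and Rb family genes, with a bar at the mean of 4 and y axes that start at 0. Orc2 and E2f5 sit higher in the stimulated samples, as does Orc4 except in YFP+ m3. Orc6, E2f7, E2f8 and Rbl1 sit lower, and E2f3 overlaps across all 3 groups.

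Dctd, Rrm2b and Asf1a rose in both comparisons, with log2 differences of 1.097, 0.93 and 0.91 in YFP+, and Rrm2b encodes the reductase subunit used outside S phase. Pole3 and Pole4, the small histone-fold subunits of polymerase epsilon, had log2 differences of 0.42 and 0.72 in YFP+ while that of the catalytic Pole was -2.63. Pclaf, which encodes a PCNA-binding factor, stood at 329, 415, 411 and 305 CPM unstimulated, 127, 105, 91.9 and 82.1 in YFP- and 50.1, 55.0, 59.6 and 38.0 in YFP+. It fell, with log2 differences of -1.85 (SE 0.17, adjusted p = 2.4e-06) and -2.85 (SE 0.17, adjusted p = 1.8e-08) beside the small differences of Pcna. Samhd1 was the second lowest of the lists between the fractions (-1.65, SE 0.32, adjusted p = 0.0025). Wdhd1, which couples the helicase to polymerase alpha, was the 1 gene of these lists higher in YFP+ than YFP- on the deposited scale (0.53, SE 0.16, adjusted p = 0.03), and that call was lost without at least 1 sample.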

How the data were processed

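RNA of 12 samples, 4 per group, was measured by sequencing. Per the labels' protocols, the SMARTer Ultra Low kit was used to make cDNA, which was read as paired ends on a NovaSeq. The submitters' processing notes name STAR 2.7.9a, featureCounts 2.0.3 and the build GRCm38, with no settings, and whether strand was used in counting is not given in the sources used here. The authors deposited 1 table of log2 CPM values; of its 55774 lines 287 were repeats and were dropped. Per-sample columns of no sample numbered 0. The steps of the values gave whole reads (within 0.01 read) for 100% of values, and library totals came from them.

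Genes above log2 CPM 0 in at least 4 samples (12364) were fitted in limma 3.58.1 (R 4.3.3) with 1 coefficient per group over all 12 samples, a trend in the prior variance and Benjamini-Hochberg adjustment, and called at an adjusted p under 0.05. A difference is between means of deposited log2 values, which understates the change of low genes. CPM stands for recovered reads relative to the library total, without a prior. Exonic lengths and overlaps came from GENCODE M21. Python 3.11.15 was used for tables and figures.

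The 43 genes, the 8 role groups, the 5 lists of other pathway genes and the markers were chosen with earlier results of these data known. Genes named with their values are, for each role and comparison, those with the most positive and the most negative difference, and the 2 most extreme pathway genes each way; others were named after their values were seen. Replicate names recur between groups, and the labels do not say whether same-named samples are pairs. Same-named samples did not deviate together in every pair (r from -0.06 to 0.38), which cannot exclude pairing. They were not treated as pairs in the main fit. The labels name no batch.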

Additional observations from a re-analysis of the deposited data

Results flagged for a closer look

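In the unstimulated group, the level of Pola2 in sample m4 stood apart from the others. Its log2 CPM was 3.64, against 4.14 to 4.25 in f2, m2 and m3, so that the gap to its nearest neighbour was 0.83 of the whole range of the 4 samples, just above Dixon's 95% critical value for 4 samples. Of 129 sets of 4 samples examined (43 genes in 3 groups) this was the 1 past the limit, where about 6.45 would be past it by chance at 1 in 20. Sample m4 was also the lowest unstimulated sample for 36 of the 43 genes.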

How the results depend on the processing

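Against unstimulated cells the calls held up: 23 of the 31 genes that fell in YFP- and 33 of the 36 that fell in YFP+ also fell under every alternative tried, and relative to the all-gene median the median of the 43 genes stayed between -1.31 and -1.09 in YFP- and between -1.87 and -1.55 in YFP+. Between YFP+ and YFP- cells 4 of 18 did so (Prim1, Lig1, Tk1 and E2f2), and that median stayed between -0.54 and -0.22. There the count of lower genes was 5 with no filter on low values, 11 when centred on the median, 10 under quantile normalization, 11 with voom weights, 7 at an adjusted p under 0.01 and from 10 to 20 when 1 sample was left out. The count of higher genes was 2 when centred, 1 under quantile normalization, 2 under trimmed-mean scaling and 2 with voom weights. In these 4 settings 12.17%, 9.406%, 9.463% and 10.45% of all genes tested were higher. When centred, under quantile normalization and with voom weights, 12.06%, 11.57% and 13.24% of all genes tested were lower. With 1 sample left out, 1585 to 2578 of all genes were lower. Over all genes tested, 1583 were called with no filter and 1466 at an adjusted p under 0.01, against 2691. Of these, 1365, 1311 and 2286 were lower. The cause was not tested, except that the stricter threshold and the larger number of genes tested follow from the settings themselves. Shares of calls that were higher in YFP+ than YFP- over all genes were 15.1% as deposited, 50.2% centred, 44.9% under quantile normalization, 41.1% under trimmed-mean scaling and 44.1% with voom weights.

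Some small differences changed sign, none of them called in the comparison concerned. In YFP+ minus YFP-, centring gave 0.039 for Cdt1, 0.024 for Mcm4, 0.094 for Mcm10, 0.14 for Rfc3, 0.032 for Rfc4, 0.062 for Rpa2 and 0.21 for Chaf1a. Quantile normalization gave 0.014 for Cdt1, 0.012 for Mcm4, 0.0077 for Gins1, 0.17 for Mcm10, 0.089 for Rfc3 and 0.30 for Chaf1a. Trimmed-mean scaling gave 0.022 for Mcm10, 0.072 for Rfc3 and 0.14 for Chaf1a, and voom weights gave 0.016 for Mcm10, 0.084 for Rfc3, 0.00027 for Rpa2 and 0.16 for Chaf1a. Over the fits with 1 sample left out, values ranged from -0.17 to 0.69 for Cdc6 and from -0.32 to 0.031 for Mcm10. They ranged from -0.044 to 0.47 for Ccne2 and from -0.28 to 0.14 for Chaf1a. In YFP- minus unstimulated, centring gave -0.0016 for Cdk2. Fits with 1 sample left out ranged there from -0.32 to 0.15 for Mcm5, -0.44 to 0.0088 for Fen1 and -0.10 to 0.41 for Cdk2. The cause of these changes was not tested.

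The replicate name was also used as a block, though the labels do not say whether same-named samples are pairs. In YFP- and YFP+ against unstimulated cells and in YFP+ against YFP- cells, 34, 38 and 20 of the 43 genes then fell. Of all genes 6682, 7774 and 3098 were called in either direction, of which 2711, 4228 and 2652 were lower. A sample correlated best with its own name in 1, 2 and 3 of the 4 names. The lowest member level, 0.718 CPM of Fen1, lies above the 3-read floor. YFP+ f2 and m2 held 48.9 and 54.2 M reads, and YFP+ m3 and m4 held 36.2 and 32.1 M. Unstimulated m4 held 32.4 M reads, the fewest of its group. The part of depth in the spread between samples was not tested.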
